A study of Mus musculus with 2 samples.

Results

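Lpl, Gpihbp1, Cd36, Fabp4, Slc27a1, Slc27a2, Mfsd2a, Angptl4, Vldlr and Fabp3 were followed as 10 genes of fatty acid uptake and lipoprotein handling, picked by symbol from the 32285 genes listed for each library. The data were single-nucleus RNA-seq (snRNA-seq) counts from interscapular brown adipose tissue (BAT) of 8-week-old mice, with 1 library per genotype. The WT library came from mice with both Srsf1 alleles floxed and no Cre, and the KO library from Adipoq-Cre mice with the same floxed alleles, so the control mice carried the floxed alleles too. The Adipoq promoter that drives Cre works in mature adipocytes, and how many mice went into each library is not given in the sources used here. With 1 library per genotype there was no replicate check and no test of genotype, and a difference between the genotypes cannot be told apart from one between mice or preparations. Every interval below is an exact 95% interval that covers counting error only.

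Brown adipocytes burn fatty acids that arrive in the blood as triglyceride inside lipoproteins or bound to albumin. Lipoprotein lipase, made by the adipocyte, is carried to the capillary wall by GPIHBP1 on the endothelial cell, where it frees fatty acids from passing lipoproteins, and ANGPTL4 inhibits it. The freed fatty acids enter endothelial cells and adipocytes with the help of CD36 and of transport proteins of the Slc27a family, and inside the cell they are bound by the FABP proteins. VLDLR takes up whole lipoprotein particles, and MFSD2A carries lysophosphatidylcholine, a phospholipid that holds a fatty acid.

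Of 12846 WT and 11495 KO barcodes, with 93102814 and 80090208 UMIs in all, 12771 and 11378 were kept. Each kept nucleus was given to the cell class whose marker genes stood out most in it, and no member was a marker. This left 49.0% of the kept WT and 51.2% of the kept KO nuclei without a class. The rule called 4836 WT and 2219 KO nuclei adipocytes, 447 and 245 capillary endothelial cells, and 205 and 1391 macrophages. Srsf1, the targeted gene, was at 179 CPM, a gene's summed UMIs relative to all UMIs of that class, in WT adipocyte nuclei and at 57.2 CPM in KO. The log2 ratio, here always KO over WT between libraries, was -1.64 (interval -1.73 to -1.55). The same ratio was -0.43 (-0.89 to 0.00) in capillary and -0.22 (-0.56 to 0.14) in macrophage nuclei. The lower level was not confined to adipocyte nuclei. The Srsf1 ratio was -0.71 (-1.23 to -0.20) in mural and -1.03 (-1.63 to -0.46) in Schwann nuclei. In pooled Schwann and lymphocyte nuclei it was -0.77 (-1.16 to -0.39). In dendritic (-0.51) and muscle (-0.40) nuclei the interval reached above 0. The median share of mitochondrial UMIs per barcode was 1.10% in WT and 0.0491% in KO.

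RNA of adipocytes was counted in nuclei of other classes. Ucp1, the brown adipocyte uncoupling protein, was at 1703 CPM in WT adipocyte nuclei and still at 542 CPM in WT capillary, 306 CPM in WT macrophage, and 978 CPM in the pooled WT Schwann and lymphocyte nuclei. Schwann and lymphocyte nuclei (155 WT and 162 KO) therefore served as the reference for what a member reached outside adipocyte, capillary and macrophage nuclei. The mix differed between the libraries, with 116 Schwann and 39 lymphocyte nuclei in WT but 51 and 111 in KO. In this reference the summed level of the 8 adipocyte markers was 4369 CPM in WT and 1867 CPM in KO, against 8561 and 8137 CPM in adipocyte nuclei. Lpl was at 1297 CPM in WT and 423 CPM in KO there, and Fabp4 at 1564 and 582 CPM, while Cd36 hardly differed, at 1600 and 1572 CPM. The reference also held RNA of other classes. The 8 macrophage markers summed to 751 CPM in WT and 1858 CPM in KO there, and the ASPC (adipose stem and progenitor cell) markers to 1407 and 1282 CPM, against 661 and 1466 CPM for the lymphocyte markers and 3223 and 1016 CPM for the Schwann markers. A level at or below the reference is not read as expression below. Lpl had a log2 ratio of -1.32 in Schwann and -1.81 in lymphocyte nuclei, and Fabp4 one of -0.98 and -2.05. The parts of the differing mix and of macrophage RNA in the reference levels, and so in the subtracted ratios, were not tested. Expression of a member by the Schwann cells and lymphocytes themselves was not tested either. For each adipocyte marker UMI, KO Schwann nuclei held 0.2535 Lpl UMIs, against 0.106 in KO adipocyte nuclei. In WT the values were 0.286 and 0.246.

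In adipocyte nuclei Mfsd2a and Slc27a2, carriers of lysophosphatidylcholine and fatty acid, were nearly absent from the KO library. Lpl was below its WT level, and Cd36 and Slc27a1 were above theirs. Of the 10 members, all with at least 50 UMIs over both libraries, 4 were past 2-fold lower with the interval on the same side (Lpl, Gpihbp1, Slc27a2 and Mfsd2a) and 0 were past 2-fold higher. With the reference level subtracted from each library the counts were 2 lower (Slc27a2 and Mfsd2a) and 3 higher (Cd36, Fabp4 and Slc27a1). No share of all genes was computed after subtraction, so these subtracted counts have no background. The log2 ratio of the summed adipocyte markers went from -0.07 as counted to 0.58 after subtraction. Without subtraction, 15855 genes reached the minimum of 50 UMIs in the class. Of these, 17.2% were past 2-fold lower and 20.4% past 2-fold higher by the same rule. The median log2 ratio was -0.76 over the members and 0.10 over all these genes.

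**Figure D1:**
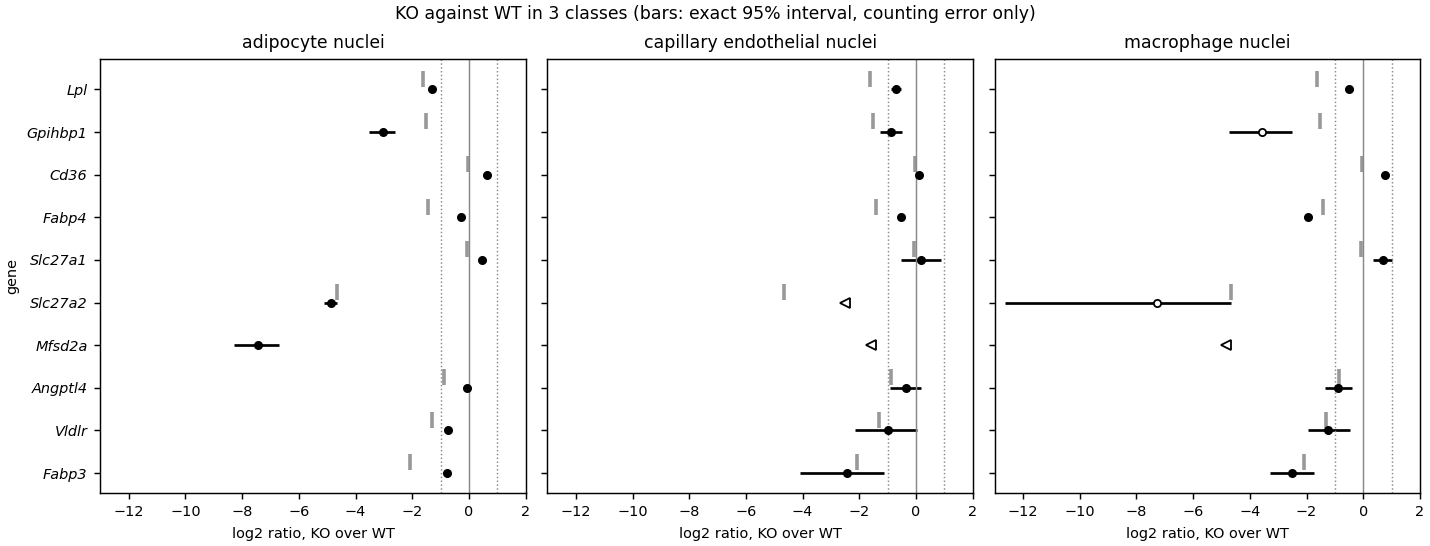
Log2 ratio of KO to WT (x axis) for each of the 10 genes (y axis) in adipocyte, capillary endothelial and macrophage nuclei, 1 library per genotype. Filled points have at least 50 UMIs over both libraries and open points fewer, bars are exact 95% intervals for counting error, arrowheads mark the upper limit where the KO count was 0, dotted lines mark 2-fold, and grey ticks give the same ratio in Schwann and lymphocyte nuclei (none for Mfsd2a, at 0 UMIs there in KO). In adipocyte nuclei Mfsd2a (-7.43) and Slc27a2 (-4.87) lie farthest to the left, and Cd36 (0.62) and Slc27a1 (0.46) lie to the right of 0.

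Lpl (GRCm38 chr8:68880491-68907448, plus strand) encodes the lipase itself. It was at 2109 CPM in WT adipocyte nuclei and 861 CPM in KO, a log2 ratio of -1.29 (-1.31 to -1.27). The median WT adipocyte nucleus held 15 Lpl UMIs and the median KO nucleus 5. Lpl stood above the reference by 0.70 (0.62 to 0.78) on the log2 scale in WT and by 1.02 (0.89 to 1.16) in KO, so both libraries had adipocyte Lpl beyond what Schwann and lymphocyte nuclei carried. The ratio in the reference itself was -1.62 (-1.77 to -1.46), and after subtraction of the reference the adipocyte ratio was -0.89, no longer past 2-fold. Its ratio hardly differed between nuclei of different depth. It was -1.29 under 4000 UMIs, -1.34 from 4000 to under 8000, and -1.27 from 8000.

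Gpihbp1 (chr15:75596628-75599481, plus strand), the endothelial anchor of the lipase, was at 16.9 CPM in WT and 2.05 CPM in KO adipocyte nuclei, a log2 ratio of -3.04 (-3.52 to -2.59). The WT level was that of the reference, 15.3 CPM, and the KO level was below its 5.37 CPM, so neither is read as adipocyte expression. The summed level of the 8 endothelial markers in the same adipocyte nuclei was 568 CPM in WT and 129 CPM in KO, and its part in the ratio was not tested. Of the 4 members lower in KO adipocyte nuclei, Gpihbp1 was the 1 whose WT level did not exceed the WT reference beyond counting error.

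Mfsd2a (chr4:122946850-122961188, minus strand) had the largest ratio of the members. The WT adipocyte nuclei gave 6225 of its UMIs (127 CPM) and the KO ones 15 (0.732 CPM), a log2 ratio of -7.43 (-8.27 to -6.71). A UMI of Mfsd2a was found in 49.0% (47.6 to 50.4) of WT adipocyte nuclei and in 0.496% (0.248 to 0.885) of KO nuclei. After thinning every nucleus to 1000 UMIs the shares were 10.8% and 0.0929%. In the WT reference the unthinned share was 17.4% and in the KO reference 0 of 162 nuclei, which allows a share of up to 1.85% by 3 counts (exact upper limit 2.25%). The 11 KO adipocyte nuclei with a UMI had a median of 14140 UMIs, against 6698 for all KO adipocyte nuclei.

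The promoter of Mfsd2a is printed because its transcript almost vanished from the KO library, and that of Cd36 because its level was not lower. Both are the 250 bases before the RefSeq start on GRCm38.p6, read 5′ to 3′ on the gene's own strand, and capitals mark AGGTCA on either strand, the core motif that nuclear receptors such as the PPARs bind. Mfsd2a has the motif on its own strand from base -213 to -208 (chr4:122961189-122961438, minus strand), and Cd36 has it on the opposite strand from -228 to -223 (chr5:17835897-17836146, minus strand). The Cd36 window lies inside the span of the gene given below, so it belongs to an internal start. The same holds for the window of Slc27a2 (chr2:126552774-126553023), which is not printed. No window at the outer end of either span was read.
Mfsd2a: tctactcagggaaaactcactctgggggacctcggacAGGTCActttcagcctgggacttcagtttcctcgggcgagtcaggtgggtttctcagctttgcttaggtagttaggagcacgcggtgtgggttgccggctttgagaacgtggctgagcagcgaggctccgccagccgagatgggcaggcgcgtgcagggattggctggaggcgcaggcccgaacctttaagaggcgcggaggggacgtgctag
Cd36: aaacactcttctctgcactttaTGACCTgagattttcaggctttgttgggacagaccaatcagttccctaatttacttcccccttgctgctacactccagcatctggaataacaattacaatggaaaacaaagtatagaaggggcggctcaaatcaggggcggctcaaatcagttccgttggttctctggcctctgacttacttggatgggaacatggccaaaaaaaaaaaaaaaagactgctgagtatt
Part of the Mfsd2a window overlaps an exon of the noncoding gene 4933421A08Rik on the other strand. The table used for promoters had entries for 6 of the 10 members, all but Lpl, Gpihbp1, Fabp4 and Angptl4. AGGTCA stood in the windows of 3 of these 6 members (Mfsd2a, Cd36 and Slc27a2) and in 14.0% of all 32851 promoters. CACGTG, an E-box, stood in a window of Slc27a1 alone among them (6.02% of all promoters), and TGACG, the core of the cAMP response element, in that of Fabp3 alone (17.8%). A match describes letters only, and the motif was present both in members that were lower in KO and in one that was not.

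Slc27a2 (chr2:126552407-126588243, plus strand) encodes a fatty acid transporter and acyl-CoA synthetase best known from liver. It was at 238 CPM in WT and 8.15 CPM in KO adipocyte nuclei, a log2 ratio of -4.87 (-5.10 to -4.65). The share of nuclei with a UMI was 67.9% in WT and 5.14% in KO, and after thinning 21.04% and 1.07%. In WT, Slc27a2 stood above the reference by 0.81 (0.55 to 1.07) on the log2 scale. In KO the difference from the reference, 0.60, had an interval of -0.55 to 2.07, so adipocyte expression beyond the reference was not detectable there. The gene Gm26697 overlaps Slc27a2 on the other strand, and whether counting used strand is not given in the sources used here.

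Slc27a1 (chr8:71568882-71587302, plus strand), the family member of muscle and fat, did not share this pattern. It was at 167 CPM in WT and 229 CPM in KO adipocyte nuclei, a log2 ratio of 0.46 (0.41 to 0.51), under 2-fold. In the reference its ratio was -0.07 (-0.44 to 0.31), and its adipocyte level stood above the reference by 0.46 (0.19 to 0.75) in WT and 0.99 (0.74 to 1.25) in KO. With the reference level subtracted from each library, the adipocyte ratio became 1.31. Subtraction moved adipocyte genes upward in general, since the 8 adipocyte markers summed had a ratio of -0.07 before it and 0.58 after it.

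Cd36 (chr5:17781690-17888801, minus strand), the membrane protein that speeds fatty acid entry, gave the most UMIs of the members in adipocyte nuclei: 121095 in WT and 77457 in KO. It was at 2465 CPM in WT and 3782 CPM in KO, a log2 ratio of 0.62 (0.60 to 0.63). The middle 80% of nuclei ran from 13.1 to 37.2 Cd36 UMIs per 10000 in WT and from 16.2 to 65.9 in KO, so the distributions overlapped and the KO one was wider. With the reference subtracted the ratio was 1.35. Over all kept nuclei together, Cd36 was at 2492 CPM in WT and 2496 CPM in KO, a log2 ratio of 0.00 (-0.01 to 0.01), while 19.5% of kept KO nuclei and 37.9% of kept WT nuclei were called adipocytes.

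Fabp4 (chr3:10204088-10208576, minus strand), the main fatty acid binding protein of adipocytes, was at 2152 CPM in WT and 1784 CPM in KO adipocyte nuclei, a log2 ratio of -0.27 (-0.29 to -0.25). In the reference Fabp4 had a ratio of -1.43 (-1.56 to -1.29), and after subtraction the adipocyte ratio was 1.03, against 0.58 for the adipocyte markers, so the direction for Fabp4 was not settled. Fabp3 (chr4:130308595-130315463, plus strand), the form of heart and brown fat, was at 77.9 CPM in WT and 45.6 CPM in KO, a log2 ratio of -0.77 (-0.88 to -0.67) that became 0.60 after subtraction. The direction for Fabp3 was therefore not settled either. Fabp3 overlaps Gm10570 and Zcchc17 on the other strand.

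Angptl4 (chr17:33773750-33781830, minus strand), the lipase inhibitor, was nearly level in adipocyte nuclei, at 146 CPM in WT and 139 CPM in KO, a log2 ratio of -0.07 (-0.13 to -0.01) that became 0.83 after subtraction of the reference. Its direction was not settled. Vldlr (chr19:27216484-27254231, plus strand), the lipoprotein receptor, was at 178 CPM in WT and 106 CPM in KO. Its log2 ratio was -0.75 (-0.82 to -0.68), or -0.27 after subtraction. Subtraction gave -5.19 for Slc27a2 and -6.65 for Mfsd2a. For these 2 genes the KO level did not exceed the KO reference beyond counting error, so both are point values of uncertain size. Lpl, Slc27a2, Mfsd2a and Vldlr had negative and Cd36 and Slc27a1 positive ratios with and without it, but only Slc27a2 and Mfsd2a were past 2-fold both ways. For Gpihbp1 subtraction gave no value, since the KO level lay below the reference.

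**Figure D2:**
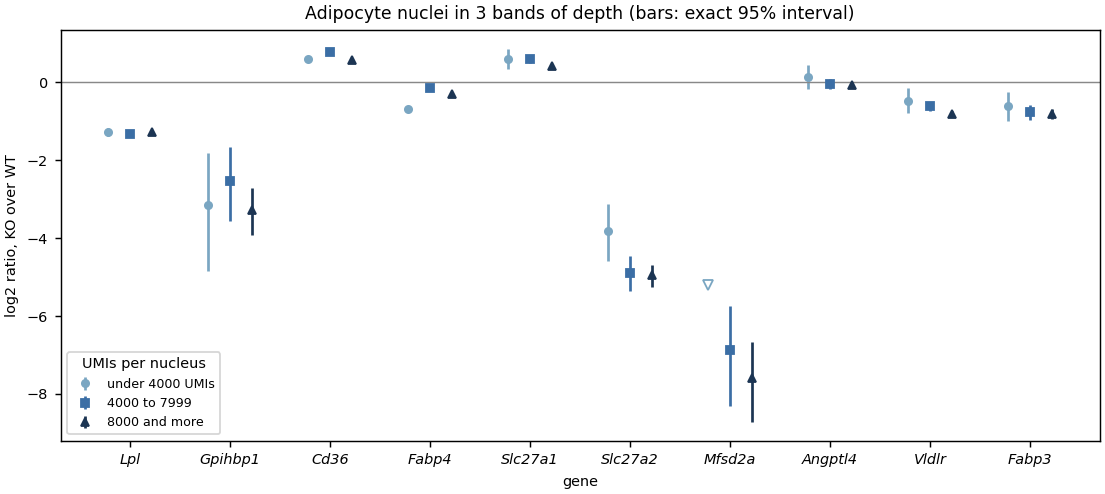
Log2 ratio of KO to WT in adipocyte nuclei (y axis) for each gene (x axis), in nuclei with under 4000, from 4000 to under 8000, and 8000 or more UMIs. Bars are exact 95% intervals for counting error, and the open arrowhead is the upper limit for Mfsd2a where KO had 0 UMIs. Lpl stays between -1.34 and -1.27, and Slc27a2 between -4.96 and -3.82, while Angptl4 lies near 0 in all 3 bands.

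The KO adipocyte nuclei were not uniform. Of the 2219, 428 had at least 1 Ucp1 UMI, with a median depth of 8355 UMIs against 6420 in the 1791 without. Slc27a2 was at 16.3 CPM in the nuclei with Ucp1 and 4.91 CPM in those without, a log2 difference of 1.73 (1.27 to 2.19). Fabp3 was at 69.1 and 36.2 CPM (0.93, 0.74 to 1.12), and Vldlr at 128 and 97.0 CPM (0.40, 0.27 to 0.53). Cd36 was level between them (3778 and 3784 CPM), Lpl was at 766 CPM with Ucp1 and 899 CPM without, and Srsf1 was at 51.8 and 59.4 CPM. In WT, 4711 adipocyte nuclei had a Ucp1 UMI and 125 did not, with median depths of 7311 and 1101 UMIs. The differences there were 1.43 (0.96 to 1.95) for Slc27a2, 1.14 (0.64 to 1.69) for Vldlr and 0.24 (-0.31 to 0.86) for Fabp3. Nuclei with 3 or more UMIs from 2 or more of the white-like markers Slc7a10, Lep and Nnat numbered 280 in WT and 324 in KO. In these, Slc27a1 was higher than in the other adipocyte nuclei of the same library, by 0.81 (0.74 to 0.88) in WT and 0.37 (0.28 to 0.46) in KO. Slc27a2 was lower, by -0.55 (-0.63 to -0.47) in WT and -1.75 (-2.62 to -0.98) in KO. Fabp3 was lower too, by -0.50 (-0.64 to -0.36) and -1.14 (-1.43 to -0.87). The white-like nuclei were deeper, with a median of 16817.5 UMIs in WT and 11614 in KO. They also carried more markers of other classes. In WT the macrophage markers were at 431 CPM against 196 CPM in the other adipocyte nuclei, the ASPC markers at 337 against 177 CPM and the Schwann markers at 82.3 against 30.2 CPM. In KO the macrophage markers were at 776 against 464 CPM. Their part in these differences was not tested.

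Capillary endothelial nuclei carried Gpihbp1, Cd36 and Fabp4 above the reference in both libraries, and the other 7 members did not stand above it in both. Of the 8 members with at least 50 UMIs over both libraries, 1 was past 2-fold lower in KO (Fabp3) and 0 were past 2-fold higher. Among the 5730 genes that reached the minimum, 9.62% were past 2-fold lower and 3.23% past 2-fold higher. The median log2 ratio was -0.61 over these 8 members and 0.04 over all these genes.

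Gpihbp1 was at 215 CPM in WT and 117 CPM in KO capillary nuclei, against 15.3 and 5.37 CPM in the reference. Within WT it was higher in capillary than in arterial nuclei (114 CPM) by 0.91 (0.44 to 1.42) on the log2 scale. In KO the arterial level was 72.1 CPM and the difference 0.70 (-0.05 to 1.52). Other classes came near the capillary level, with 174 CPM (113 to 254) in WT lymphatic endothelial nuclei and 115 CPM (88.1 to 147) in KO haemoglobin-rich nuclei. The log2 ratio of KO to WT in capillary nuclei was -0.87 (-1.27 to -0.49). The share of capillary nuclei with a UMI was 40.9% in WT and 23.3% in KO, against 9.03% and 3.09% in the reference. When nuclei were grouped by Leiden clusters instead, which took in 2080 WT and 953 KO capillary nuclei, the ratio was -0.19 (-0.38 to -0.01), so its size depended on which nuclei were counted. The 3 endothelial clusters with the most nuclei each came almost wholly from 1 library.

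Cd36 was highest of all classes in capillary nuclei, at 4876 CPM in WT and 5176 CPM in KO, a log2 ratio of 0.09 (0.02 to 0.15). It exceeded the reference by 1.61 (1.53 to 1.69) in WT and 1.72 (1.63 to 1.80) in KO, and it exceeded arterial nuclei by 0.68 (0.59 to 0.78) and 1.00 (0.88 to 1.12). Fabp4 was at 2826 CPM in WT and 1977 CPM in KO capillary nuclei, a log2 ratio of -0.52 (-0.61 to -0.42). After subtraction of the reference the ratio was 0.15, and with Leiden clusters it was -0.01.

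Lpl was at 951 CPM in WT capillary nuclei, below the WT reference by 0.45 on the log2 scale, and at 580 CPM in KO, above the KO reference by 0.45 (0.25 to 0.66). Angptl4 was at 81.5 and 63.7 CPM, Slc27a1 at 41.2 and 46.9 CPM, and Vldlr at 33.4 and 16.8 CPM, none of them clear of the reference in WT. Fabp3 was at 45.0 CPM in WT, where the reference was 56.7 CPM, and at 8.38 CPM in KO, from 5 UMIs. Its log2 ratio was -2.43 (-4.10 to -1.12).

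Slc27a2 and Mfsd2a in WT capillary nuclei lay below the WT reference, by -1.90 (-2.42 to -1.41) and -1.40 (-2.15 to -0.69). From WT to KO, Slc27a2 went from 47 UMIs to 0 and Mfsd2a from 26 to 0. Against a floor of 3 counts in the KO nuclei, Slc27a2 was at least 7.26-fold and Mfsd2a at least 4.02-fold lower. The exact intervals, which also cover the WT counts, reached up to -2.50 and -1.60 on the log2 scale. For each Ucp1 UMI, WT capillary nuclei held 0.0673 Slc27a2 UMIs and WT Schwann nuclei 0.145, against 0.140 in WT adipocyte nuclei. For Mfsd2a the values were 0.0373, 0.0571 and 0.0744. MFSD2A is known as a transporter of brain capillaries, but in these BAT capillary nuclei its level is not read as expression.

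**Figure D3:**
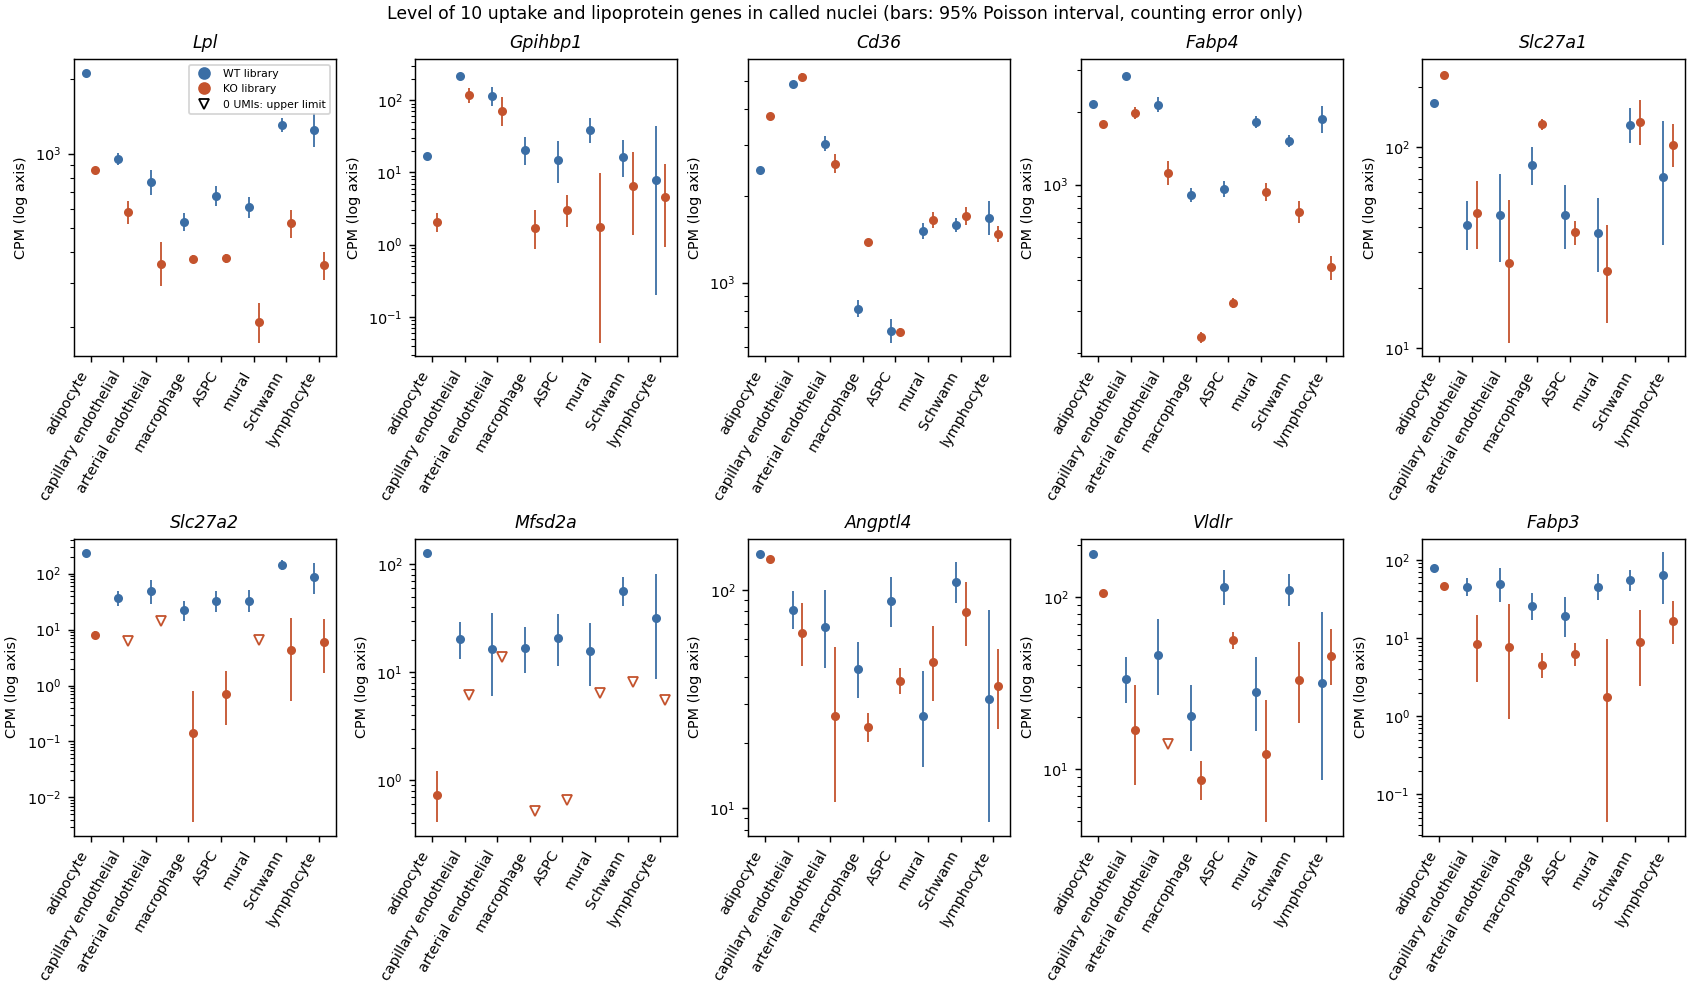
Level of each gene in CPM (y axis, log scale, a separate range in each panel) in 8 classes of nuclei (x axis), blue for the WT library and orange for the KO library. Bars are exact 95% Poisson intervals, and open arrowheads mark the upper limit where no UMI was found. Gpihbp1 is highest in capillary and arterial nuclei, Cd36 in capillary nuclei (4876 CPM in WT and 5176 CPM in KO), and Slc27a2 and Mfsd2a in WT adipocyte nuclei.

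In macrophage nuclei no member stood above the reference by CPM in both libraries. Of the 7 members with at least 50 UMIs over both libraries, 3 were past 2-fold lower in KO (Fabp4, Vldlr and Fabp3) and 0 were past 2-fold higher. The background was 8.45% lower and 4.67% higher among 10102 genes, and the median log2 ratio was -0.88 over the 7 members and -0.01 over all these genes. Fabp4 was at 905 CPM in WT and 232 CPM in KO, a log2 ratio of -1.96 (-2.08 to -1.85), but the reference lay higher in both libraries (1564 and 582 CPM). Fabp3 (25.9 and 4.55 CPM) and Vldlr (20.4 and 8.67 CPM) also lay under the reference in both. These 3 lower values are therefore not read as a change of macrophage expression. For each adipocyte marker UMI, however, WT macrophage nuclei held 0.948 Fabp4 UMIs, against 0.332 in WT Schwann and 0.596 in WT lymphocyte nuclei. In KO the values were 0.343, 0.373 and 0.262, so for Fabp4 the 2 measures differed in WT. Lpl was at 532 CPM in WT and 375 CPM in KO, again under the reference. For each adipocyte marker UMI, WT macrophage nuclei held 0.557 Lpl UMIs, against 0.286 in Schwann, 0.3965 in lymphocyte and 0.246 in adipocyte nuclei. In KO the values were 0.556, 0.2535, 0.205 and 0.106, so for Lpl the 2 measures differed in both libraries.

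Cd36, here the scavenger receptor for oxidized lipoprotein, was at 813 CPM in WT and 1383 CPM in KO macrophage nuclei, a log2 ratio of 0.77 (0.67 to 0.87). Slc27a1 was at 81.4 and 130 CPM, a log2 ratio of 0.68 (0.36 to 1.01). In the reference the ratios of these genes were -0.03 (-0.13 to 0.08) and -0.07 (-0.44 to 0.31). The macrophage Cd36 level was under the reference in both libraries, by -0.98 in WT and -0.18 in KO, while the adipocyte marker level in macrophage nuclei was also lower than in the reference, at 956 CPM in WT and 676 CPM in KO. For each adipocyte marker UMI, KO macrophage nuclei held 2.05 Cd36 UMIs, KO Schwann nuclei 0.828, KO lymphocyte nuclei 0.854 and KO adipocyte nuclei 0.465. In WT the values were 0.851, 0.348, 0.535 and 0.288. For Slc27a1 they were 0.193, 0.0650, 0.0593 and 0.0282 in KO and 0.0852, 0.0282, 0.0227 and 0.0195 in WT. The values of the Schwann, lymphocyte and adipocyte nuclei also differed among themselves. The part of carried-over RNA in macrophage Cd36 and Slc27a1 was not tested. With Leiden clusters (231 WT and 3214 KO macrophage nuclei) the Cd36 ratio was 1.30 and past 2-fold, and with the mean over nuclei it was 0.44 (0.34 to 0.54). The median macrophage nucleus had 6.13 Cd36 UMIs per 10000 in WT and 7.15 in KO.

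The macrophage subsets differed. Lipid-associated nuclei, whose leading subset list was Gpnmb, Atp6v0d2, Mmp12 and Trem2 with 3 or more UMIs over at least 2 of these genes, a minimum set after the data were seen, numbered 204 in KO and 7 in WT. Resident nuclei, called from Lyve1, Cd163, F13a1 and Mrc1, numbered 1083 and 191. Within KO, Cd36 was at 2399 CPM in lipid-associated and 1071 CPM in resident nuclei, a log2 difference of 1.16 (1.10 to 1.22). Lpl was at 553 and 319 CPM, a difference of 0.79 (0.67 to 0.92), and Fabp4 at 309 and 209 CPM, a difference of 0.56 (0.40 to 0.72). Slc27a1 was at 152 and 122 CPM, a difference of 0.32 (0.09 to 0.54). In the lipid-associated nuclei of KO, Cd36, Lpl and Slc27a1 exceeded the KO reference, by 0.61 (0.53 to 0.69), 0.38 (0.22 to 0.55) and 0.40 (0.08 to 0.72), and Fabp4 did not (-0.91). The adipocyte marker level was 834 CPM in these nuclei. In WT, Cd36 was at 2209 CPM in the 7 lipid-associated nuclei, from 82 UMIs, and at 755 CPM in resident nuclei.

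**Figure D4:**
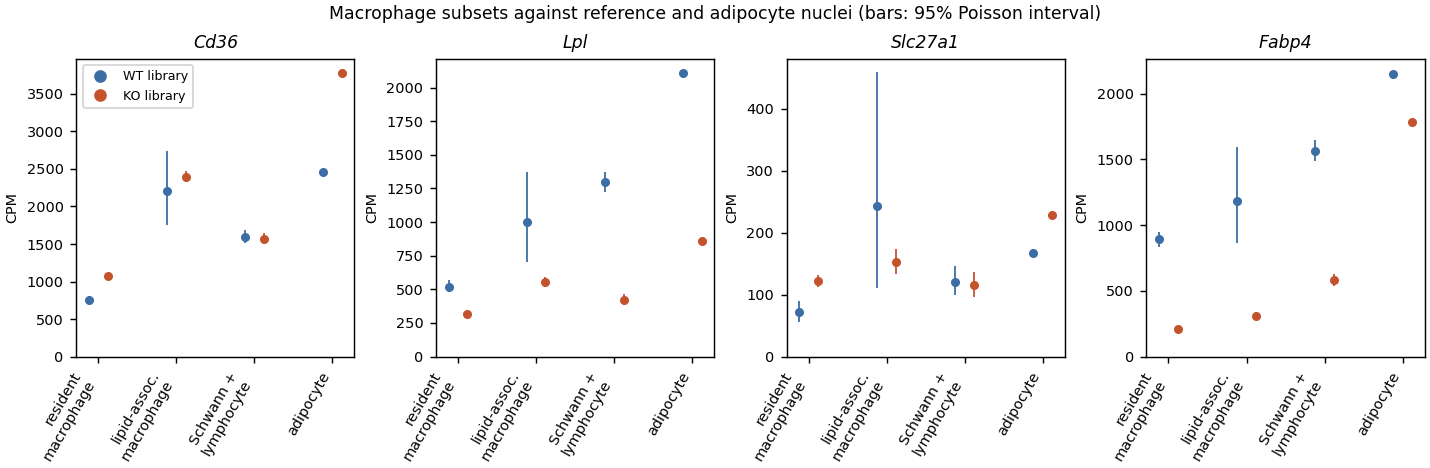
Level of Cd36, Lpl, Slc27a1 and Fabp4 in CPM (y axis, linear from 0) in resident and lipid-associated macrophage nuclei, in Schwann and lymphocyte nuclei, and in adipocyte nuclei (x axis), blue for WT and orange for KO. Bars are exact 95% Poisson intervals and are wide for the 7 WT lipid-associated nuclei. In KO, Cd36 is at 2399 CPM in lipid-associated and 1071 CPM in resident nuclei, with 1572 CPM in the reference.

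Gpihbp1 (22 UMIs in WT and 12 in KO), Slc27a2 (24 and 1) and Mfsd2a (18 and 0) were all under 50 UMIs in macrophage nuclei. Mfsd2a in KO was at least 39.0-fold lower against 3 counts, with an exact interval up to -4.84 on the log2 scale. Angptl4 was at 43.5 CPM in WT and 23.6 CPM in KO, a log2 ratio of -0.88 (-1.36 to -0.38), under the reference of 98.1 and 53.7 CPM.

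Most UMIs of the members lay in adipocyte nuclei or in nuclei without a class. Of the UMIs of all genes, adipocyte nuclei held 61.9% in WT and 28.0% in KO, and nuclei without a class 29.8% and 48.9%. Adipocyte nuclei held 70.0% of the Lpl UMIs of all kept WT nuclei and 37.1% of those of KO, while nuclei without a class held 25.7% and 48.1%. For Slc27a2 the adipocyte shares were 76.0% and 67.6%, and for Cd36 61.2% and 42.4%. Endothelial nuclei held 12.2% of the Gpihbp1 UMIs in WT and 15.0% in KO, against 2.59% and 1.43% of the UMIs of all genes. Of the Gpihbp1 UMIs, 54.5% and 62.3% lay in nuclei without a class.

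A wider list of 46 genes of the same pathway gave the setting. In adipocyte nuclei 39 of them had at least 50 UMIs, of which 11 were past 2-fold lower and 10 higher. Of all genes with that many UMIs, 17.2% were lower and 20.4% higher. The median log2 ratio of the 39 was -0.18. Lower were Lipg, endothelial lipase (-4.35), Tcf15, a factor of capillary endothelium (-2.42), and Angptl8 (-1.28), which takes part in inhibiting the lipase. Their WT levels were low, from 6.56 to 12.1 CPM. The endothelial markers in the same nuclei summed to 568 CPM in WT and 129 CPM in KO, and their part in the lower values was not tested. Higher were Angptl6 (3.79), the transporter Slc27a6 (3.16), at 0.224 CPM in WT and 2.00 CPM in KO, and Lrp1, a receptor of lipoprotein remnants, at 95.6 CPM in WT and 398 CPM in KO (2.06, 2.01 to 2.11). The other family genes were Fabp5 (0.82), Slc27a4 (0.26) and Slc27a3 (-0.98), under 2-fold. Pparg, one of the 46, was itself an adipocyte marker used to call nuclei. The summed levels of the macrophage markers in adipocyte nuclei were 236 CPM in WT and 542 CPM in KO, and those of ASPC markers 204 and 301 CPM. Their part in the higher values was not tested.

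In capillary nuclei 22 of the 46 had at least 50 UMIs, of which 4 were past 2-fold lower and 1 higher. Of all genes with that many UMIs, 9.62% were lower and 3.23% higher. Apoc1, an apolipoprotein, had 51 WT UMIs and no KO UMI, which puts it at least 7.88-fold lower against 3 counts, with an exact interval up to -2.63 on the log2 scale. Its WT level was 39.6 CPM in capillary, 31.1 CPM in adipocyte and 27.75 CPM in macrophage nuclei. It was lower in KO in adipocyte (-1.15) and macrophage nuclei (-3.80, under 50 UMIs) too. The part of carried-over RNA in capillary Apoc1 was not tested. Ppara, the fatty acid sensing receptor, had a ratio of -2.52 (-3.17 to -1.93), and Acsl1, an acyl-CoA synthetase, one of -1.17 (-1.46 to -0.88). Both lay below the reference, at 241 CPM for Ppara and 452 CPM for Acsl1 in WT capillary nuclei against 1381 and 1538 CPM. In adipocyte nuclei Ppara was at 2520 CPM in WT and 896 CPM in KO, and Acsl1 at 3325 and 2327 CPM. Scarb1, the receptor of high-density lipoprotein, was at 179 CPM in WT and 478 CPM in KO, a ratio of 1.42 (1.16 to 1.68). Lpcat3 followed at 0.80 (0.36 to 1.23), and Fabp5 was at -0.43 (-1.18 to 0.27). In macrophage nuclei 30 of the 46 had at least 50 UMIs, of which 4 were past 2-fold lower and 0 higher. Of all genes with that many UMIs, 8.45% were lower and 4.67% higher. Cavin2 (-2.29), Ppara (-1.82) and Cav1 (-1.73) were lowest, and the summed endothelial marker level in macrophage nuclei was 402 CPM in WT and 110 CPM in KO. Slc27a6 (1.00, -0.44 to 2.93), Acsl3 (0.95, 0.44 to 1.51) and Acsl4 (0.72, 0.45 to 1.01) had the highest ratios, none past 2-fold with its interval above 0.

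Over 18 profiles (9 classes in each library) and 12837 genes, the genes whose log2 levels followed each member most closely were listed. These correlations share libraries, depth and free RNA, and they describe a likeness only. Mfsd2a went most closely with Dio2 (Pearson r 0.989), Gm26749 (0.969) and Gm15738 (0.968), and Slc27a2 with Erbb4 (0.975), Xrcc6 (0.974) and Ppargc1a (0.973). Gpihbp1 went with Gm12002 (0.984), Ccm2l (0.942) and Btnl9 (0.937), the last a capillary marker used for calling. Lpl went with Txnip (0.951), Gadd45g (0.923) and Naa30 (0.922), Vldlr with Maob (0.946), Miga2 (0.885) and Gstz1 (0.877), and Fabp3 with Gm16984 (0.950), Ndufb3 (0.940) and Ldha (0.927). Slc27a1 went with Nadk (0.932), Tor1aip1 (0.903) and Neat1 (0.901), and Fabp4 with Snrk (0.900), Cav1 (0.877) and Tcim (0.871). The closest genes to Angptl4 (Gm42982, 0.862, Gpr135, 0.855, and Mbnl2, 0.839) and Cd36 (F11r, 0.850, Fry, 0.849, and Dysf, 0.847) were the least alike.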

How the data were processed

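The deposited files were 10x matrices of raw UMI counts per gene and barcode, made by the authors with Cell Ranger (5.0.0 in the file headers, another version in the study's methods) on mm10. Seurat 3.1.1 is also named per the labels. Whether intronic reads were counted is not given in the sources used here. The members, gene lists and alternatives were chosen with earlier results of these data known.

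Nuclei were kept with at least 200 genes, at most 10% mitochondrial UMIs, and log UMI and gene totals no more than 3 median absolute deviations from their library's median (24149 of 24341 barcodes). A class needed 3 UMIs from 2 of its markers, a relative score of 0.2 (set after the marker sums were seen) and 2 times the next score. Endothelial nuclei were split by subset markers, and venous and lymphatic nuclei were not compared. Doublets were not called separately, and 52 barcodes occurred in both libraries. Summed counts gave CPM with Poisson intervals and log2 ratios with Clopper-Pearson intervals (scipy 1.17.1), checked on simulated data. Past 2-fold means a ratio over 2 with the interval on that side of 0, for genes with at least 50 UMIs. All 10 members are named, of the other pathway genes the 3 largest ratios each way per class and family genes, and for each member the 3 genes most alike (at least 500 UMIs). The values of 1 other pathway gene are not reported here. Clustering used scanpy 1.11.5.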

Additional observations from a re-analysis of the deposited data

Results flagged for a closer look

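Fabp4 and Gpihbp1 gave signal in nuclei outside the comparisons. In the 209 WT and 121 KO haemoglobin-rich nuclei Fabp4 was at 4184 CPM (4044 to 4326) in WT and 6635 CPM (6419 to 6856) in KO, higher than in adipocyte or capillary nuclei of the same library. Gpihbp1 was at 72.3 CPM (55.1 to 93.3) in WT and 115 CPM (88.1 to 147) in KO there, above the 15.3 and 5.37 CPM of Schwann and lymphocyte nuclei. In the same nuclei the endothelial markers were at 2352 CPM in WT and 2148 CPM in KO, against 876 and 433 CPM in Schwann and lymphocyte nuclei, and the adipocyte markers at 5213 and 3254 CPM. Their part in these values was not tested. These nuclei had median depths of 1950 and 1757 UMIs and median mitochondrial shares of 2.77% and 1.69%. No test was possible with 1 library per genotype.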

How the results depend on the processing

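No paired analysis was possible because each genotype has 1 library. Of 312 log2 ratios of single members under 13 alternatives, 260 stayed within the interval of the reported value, 52 moved outside it and 0 of the ratios past 2-fold changed sign. With the level in Schwann and lymphocyte nuclei subtracted, 2 members were lower and 3 higher in KO adipocyte nuclei and 0 lower in capillary nuclei, and only members above the reference in both libraries have a value, which left none in macrophage nuclei. With Leiden clusters, 5 members were lower in capillary nuclei and 1 was higher in macrophage nuclei, and the largest endothelial clusters each came almost wholly from 1 library. The shares of all genes past 2-fold given above hold for the main setting only. No such share stands beside the counts in this paragraph, so they are not read as results about the members. At 3 times the next score, 0 were lower in capillary and 1 in macrophage nuclei, and with at least 200 UMIs over both libraries also 0 and 1. Under the first, Fabp3 stayed at -2.86 in capillary and -2.09 in macrophage nuclei with fewer than 50 UMIs, and Vldlr was at -0.89 in macrophage nuclei. The mean over nuclei and centred ratios each gave 2 lower in capillary nuclei. As point values, shares of nuclei with a UMI exceeded the reference in both libraries for 9 members in adipocyte, 3 in capillary and 0 in macrophage nuclei. After thinning to 1000 UMIs they did so for 9, 5 and 0. A score of at least 0.3 and leaving out shared barcodes were chosen after seeing the data. The first gave 2 lower in macrophage nuclei, as did a limit of 5% mitochondrial UMIs with 500 to 5000 genes, and the second moved no count. Depth limited Slc27a2, Mfsd2a, Vldlr and Fabp3 in capillary and macrophage nuclei.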
